A study of Mus musculus with 10 samples.

Results

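The NF-kB pathway and its response to tumor necrosis factor were examined in mouse prostate cancer organoids as a module of 36 genes. The members are NF-kB subunits, their inhibitors, TNF receptor complex genes with signalling genes grouped beside them, feedback regulators and genes that the pathway induces. They were picked by symbol from both expression tables by known function, by a rule that uses no expression value, though with earlier results of these data known, and all 36 were found among the 24043 rows of the chemical table and the 24016 gene rows of the genetic table. Symbols are written in capitals, as the tables give them.

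RNA was sequenced from 10 organoid libraries in a chemical and a genetic experiment, set up to read the effect of inhibiting EZH2, the methyltransferase that places the repressive mark on histone H3. The organoids came from the dorsal-lateral prostate lobe of C57BL/6 mice aged 8 weeks, and all groups shared the same engineered background of cMYC overexpression, floxed EZH2 alleles and an inducible PSA-CreERT2. Every culture was grown with 10 nM R1881, a synthetic androgen. The chemical experiment compared 3 libraries given DMSO with 3 given 1 µM DZNep, an inhibitor of S-adenosylhomocysteine hydrolase that lowers EZH2 activity, and the genetic experiment compared 2 given EtOH with 2 given 1 µM Tamoxifen, which activates CreERT2, all collected after 3 days. CreERT2 was driven by the PSA promoter, so recombination was restricted to cells in which that promoter is active. Tamoxifen itself and the recombination it starts cannot be told apart in this design, since no library received Tamoxifen without the recombinase. Replicates are not stated to be independent cultures or mice, and the p-values therefore reflect only library-to-library spread, possibly technical.

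NF-kB is a family of dimeric transcription factors that rest in the cytoplasm bound to inhibitor proteins of the IkB family. When TNF binds its receptor, ubiquitin ligases and kinases gathered at the receptor cause the inhibitor to be degraded, and the freed dimers enter the nucleus and induce cytokines, survival genes and their own inhibitors. In prostate epithelium and its tumors the pathway is known for inflammatory signalling and for supporting cell survival.

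Levels are given in RPKM, read counts scaled to transcript length and to the mapped reads of the library, so that genes can be compared per length. Changes are differences in log2(RPKM + 1) between group means with their standard error (SE), and they understate the change of weakly expressed genes. Called means an adjusted p under 0.05 in limma's moderated test, adjusted by the Benjamini-Hochberg method over all genes that averaged 1 RPKM or more in the experiment. Each library held 15004 to 15396 genes above 0 and 11037 to 11094 at 1 RPKM or more, and its read depth is unknown because no counts were used here. EZH2 averaged 29.1 ± 1.78 RPKM with DMSO and 23.8 ± 1.19 with DZNep (SD, n = 3), and fell by 0.28 (SE 0.0612, adjusted p = 0.0142). It averaged 31.0 ± 4.25 RPKM with EtOH and 32.6 ± 0.822 with Tamoxifen (SD, n = 2), with a change of 0.08 (adjusted p = 0.635). Because RPKM sums exons that Cre may leave in place, this value is no check of the recombination. Of 11 prostate epithelial markers, 10 reached 1 RPKM in every group, and PBSN, which encodes probasin, was listed at 0 in all libraries.

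The NF-kB binding motif occurs in the proximal promoters of many members, and the sequences are shown for the genes whose changes the results turn on. Proximal promoters, from 250 bases before to 50 after the annotated transcription start, were taken from RefSeq (GRCm38.p6) and had entries for 28 of the 36 members, in 33 windows. Entries were not found for NFKB1, RELB, NFKBIZ, RIPK2, MAP3K8, IL23A, CCL2 and PLAU. The search covered both strands for the kappaB consensus, a 10-position motif known by that name, and for the overlapping 9-letter forms GGGANTTTC and GGANTTTCC. The kappaB consensus was found in 12 of the 28 members (42.9%), against 5.14% of 27025 genes with a promoter entry and 6.21% of the 8374 such genes with expression above the filter. GGGANTTTC was found in 4 members (14.3%) against 1.29% of all genes, and GGANTTTCC in 7 members (25%) against 1.45%. Any of the 3 motifs occurred in 13 members (46.4%) against 6.65%, namely BCL3, CCL20, CSF1, IER3, IL6, NFKB2, NFKBIA, NFKBIE, REL, SOD2, TNFAIP2, TNFAIP3 and TNIP1. A match describes the letters in this window and is not a measured binding site.

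Below are the 200 bases before the start of 8 members, read 5′ to 3′ on the strand of the gene in GRCm38.p6, with matches to any of the 3 motifs in capitals. CCL20 (chr1:83116566-83116765, + strand), CSF1 (chr3:107760470-107760669, - strand) and TNFAIP2 (chr12:111442461-111442660, + strand) were among the members with the largest called changes, and each held 1 match region, starting 80, 154 and 87 bases before the start. NFKBIA (chr12:55492648-55492847, - strand) and TNFAIP3 (chr10:19015411-19015610, - strand) encode inhibitors of the pathway, held 3 match regions each, and were added to the display after their values were seen. LIF (chr11:4257368-4257567, + strand), CSF2 (chr11:54249900-54250099, - strand) and TNF (chr17:35202008-35202207, - strand) also had large called changes and held no match in this window.
CCL20: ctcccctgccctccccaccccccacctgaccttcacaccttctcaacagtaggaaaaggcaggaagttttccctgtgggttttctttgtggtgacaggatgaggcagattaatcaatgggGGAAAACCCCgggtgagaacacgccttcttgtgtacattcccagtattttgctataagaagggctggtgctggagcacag
CSF1: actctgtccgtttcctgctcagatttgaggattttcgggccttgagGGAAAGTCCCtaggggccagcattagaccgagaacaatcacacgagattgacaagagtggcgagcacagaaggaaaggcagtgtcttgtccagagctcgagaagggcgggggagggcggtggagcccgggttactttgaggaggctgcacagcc
TNFAIP2: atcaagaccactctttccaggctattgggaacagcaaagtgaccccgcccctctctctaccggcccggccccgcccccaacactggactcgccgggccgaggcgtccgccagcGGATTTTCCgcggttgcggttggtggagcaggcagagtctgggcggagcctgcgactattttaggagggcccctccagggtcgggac
NFKBIA: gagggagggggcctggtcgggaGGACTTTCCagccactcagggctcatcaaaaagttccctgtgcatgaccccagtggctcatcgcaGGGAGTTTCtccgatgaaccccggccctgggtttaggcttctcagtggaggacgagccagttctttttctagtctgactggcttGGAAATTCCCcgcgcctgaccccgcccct
TNFAIP3: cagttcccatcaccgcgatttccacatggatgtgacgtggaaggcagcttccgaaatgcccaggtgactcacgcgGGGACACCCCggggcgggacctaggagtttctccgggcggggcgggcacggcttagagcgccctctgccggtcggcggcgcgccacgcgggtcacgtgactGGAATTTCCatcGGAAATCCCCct
LIF: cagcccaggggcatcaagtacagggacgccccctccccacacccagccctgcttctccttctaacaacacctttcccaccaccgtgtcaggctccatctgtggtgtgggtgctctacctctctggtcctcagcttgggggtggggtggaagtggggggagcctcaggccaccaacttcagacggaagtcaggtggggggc
CSF2: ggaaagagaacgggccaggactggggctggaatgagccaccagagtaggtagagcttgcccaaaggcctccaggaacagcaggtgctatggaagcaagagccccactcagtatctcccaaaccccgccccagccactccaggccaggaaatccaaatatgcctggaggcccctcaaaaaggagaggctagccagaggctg
TNF: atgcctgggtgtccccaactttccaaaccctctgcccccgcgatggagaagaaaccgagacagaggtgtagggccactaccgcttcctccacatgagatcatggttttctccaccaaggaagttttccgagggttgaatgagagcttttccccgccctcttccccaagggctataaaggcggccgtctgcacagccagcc

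**Figure D1:**
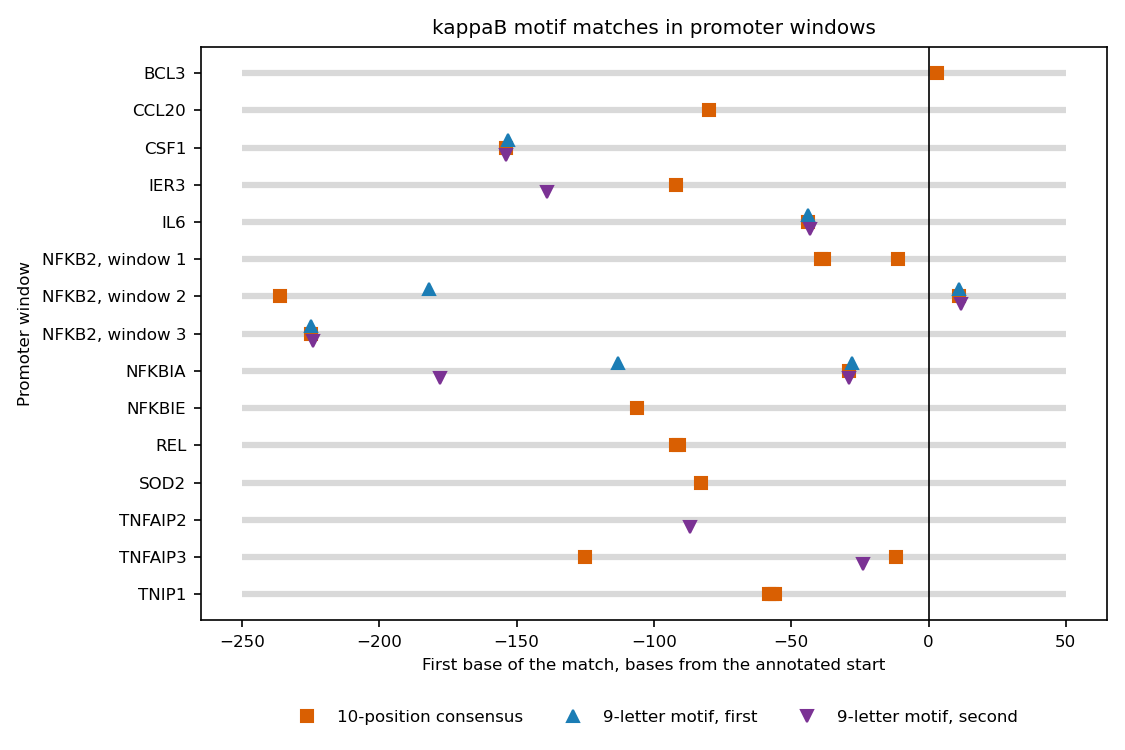
Positions of motif matches in the proximal promoters of members with any match, in bases from the annotated transcription start on the horizontal axis, with 1 line per promoter window and symbols marking the motif (GGGANTTTC is the first and GGANTTTCC the second 9-letter motif). Matches lie on both sides of the start, and NFKBIA and TNFAIP3 each hold 3 separate match regions before it.

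With DZNep, genes for secreted signals and for the ligand TNF were higher, while the NF-kB inhibitor gene NFKBIA, the subunit gene NFKB1 and the TNF-inducible gene TNFAIP2 were lower. Of the 36 members, 32 passed the filter of 1 RPKM in both experiments. The greatest called change was that of CCL20, from 6.79 ± 2.57 to 24.8 ± 3.02 RPKM (SD, n = 3). In all, 6 of the 32 (18.8%) were called higher, against a background of 16.6% of the 11143 genes tested, and 3 (9.38%) were called lower, against 11.1% (27.7% in either direction). Both shares lie near the background, so the counts are not a result about the module. The median change of the 32 members was 0.05, beside 0.01 for all genes tested. In bulk RNA, fewer cells of a type and less RNA per cell cannot be told apart.

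Among the induced secreted factors, CCL20, a chemokine that attracts cells bearing CCR6, stood at 9.67, 5.95 and 4.75 RPKM in DMSO libraries 1 to 3 and at 21.4, 25.7 and 27.2 in DZNep libraries 1 to 3. Every DZNep library lay above every DMSO library, and DMSO 1 was the highest of its group. CCL20 rose by 1.77 (SE 0.205, adjusted p = 0.00101). CSF1, the growth factor of the macrophage lineage, stood at 5.56, 5.88 and 5.91 RPKM with DMSO and at 7.76, 7.91 and 7.85 with DZNep. The libraries of each group were close together and the groups did not overlap, and CSF1 rose by 0.38 (SE 0.0469, adjusted p = 0.00132). CSF2, which encodes GM-CSF, stood at 1.57, 2.19 and 1.84 RPKM with DMSO and at 3.60, 3.03 and 2.80 with DZNep. Its DMSO mean was the lowest among members above the filter, its groups did not overlap, and it rose by 0.53 (SE 0.102, adjusted p = 0.0085).

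The other 3 secreted factors above the filter were not called with DZNep. LIF, a cytokine of the interleukin 6 family, stood at 10.8, 12.0 and 10.8 RPKM with DMSO and at 10.7, 11.2 and 10.5 with DZNep. The groups overlapped, and the change was -0.05 (95% interval -0.18 to 0.09, adjusted p = 0.579). CX3CL1, a membrane-bound chemokine, averaged 14.6 RPKM with DMSO and 14.5 with DZNep. PLAU, which encodes urokinase, averaged 16.5 and 17.4 RPKM. IL6, IL23A and CCL2, with the adaptor TRAF1, did not pass the filter: their highest values in any library of the chemical experiment were 0.168, 0.491, 0.0953 and 0.111 RPKM. When the filter was dropped, IL6 was called higher with DZNep, at a mean of 0.0287 RPKM with DMSO and 0.142 with DZNep.

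Within the TNF receptor complex, the ligand and an apoptosis inhibitor rose. TNF stood at 5.55, 4.98 and 5.89 RPKM with DMSO and at 7.91, 8.59 and 8.05 with DZNep. No library of either group reached into the other, and TNF rose by 0.51 (SE 0.065, adjusted p = 0.00157), a 1.5-fold difference of mean RPKM. BIRC2, which encodes the ubiquitin ligase cIAP1, stood at 16.5, 14.9 and 15.5 RPKM with DMSO and at 18.1, 18.8 and 19.2 with DZNep. The groups did not overlap, and BIRC2 rose by 0.25 (SE 0.0529, adjusted p = 0.0131). The call was lost without DMSO 2 (adjusted p = 0.0641), without DZNep 2 (0.0524) or with the replicate number fitted as a block (0.0572). The kinase gene RIPK1 (11.7 to 12.8 RPKM, change 0.13, adjusted p = 0.0921) and the adaptor gene TRAF2 (10.1 to 11.2 RPKM, change 0.12, adjusted p = 0.0648) had non-overlapping groups but were not called. The receptor TNFRSF1A averaged 35.6 RPKM with DMSO and 34.4 with DZNep. BIRC3 and CFLAR, which encode an apoptosis inhibitor and a caspase-8 regulator, and the kinase genes RIPK2 and MAP3K8, only grouped here with the complex, had changes between -0.02 and 0.06.

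The inhibitor and subunit genes that were called fell, each by a small amount. NFKBIA, which encodes IkB-alpha, stood at 64.3, 69.1 and 67.5 RPKM with DMSO and at 58.1, 60.3 and 59.8 with DZNep. All DZNep libraries lay below all DMSO libraries, and NFKBIA fell by 0.17 (SE 0.0476, adjusted p = 0.0328). NFKB1, which encodes the p105 precursor of the p50 subunit, stood at 34.7, 35.5 and 36.9 RPKM with DMSO and at 32.4, 32.6 and 30.7 with DZNep. Its groups also did not overlap, and it fell by 0.16 (SE 0.0482, adjusted p = 0.0445). The calls of NFKBIA and NFKB1 were lost without any of DMSO 2, DMSO 3 and the 3 DZNep libraries in turn. Both were also lost with the replicate number fitted as a block, and that of NFKB1 with a variance prior without the trend. Over all alternatives, adjusted p reached 0.143 for NFKBIA and 0.139 for NFKB1.

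The other 4 subunit genes and the other 4 genes grouped here with the inhibitors were not called with DZNep. RELA, which encodes the p65 subunit, averaged 30.8 RPKM with DMSO and 30.3 with DZNep, and NFKB2, the precursor of p52, averaged 31.1 and 30.3. RELB averaged 19.9 and 20.1 RPKM, and REL 4.14 and 4.66. Mean levels of these 4 transcripts differed by at most 1.12-fold between groups (REL), and transcript levels do not measure nuclear entry. In the inhibitor group, NFKBIB, NFKBIE, NFKBIZ and BCL3 had changes from -0.15 (BCL3, adjusted p = 0.148) to 0.16 (NFKBIE, adjusted p = 0.154). NFKBIZ, a nuclear IkB protein, was the member of these 4 whose groups did not overlap, at 26.7 ± 0.24 RPKM with DMSO and 28.9 ± 0.6 with DZNep (SD, n = 3), with an adjusted p of 0.0862.

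TNFAIP2, a gene induced by TNF and placed here with the feedback regulators, fell most of all members. It stood at 104, 95.1 and 88.5 RPKM with DMSO and at 75.9, 74.1 and 60.1 with DZNep. The groups did not overlap, with DZNep 3 lowest, and TNFAIP2 fell by 0.45 (SE 0.0986, adjusted p = 0.0134). TNFAIP3, which encodes the ubiquitin-editing inhibitor A20, stood at 15.7, 19.2 and 18.4 RPKM with DMSO and at 16.0, 16.3 and 15.0 with DZNep. DMSO 1 lay within the DZNep range, and the change of -0.16 was not called (adjusted p = 0.154), although it was without DMSO 1 (adjusted p = 0.0192). The A20-binding proteins TNIP1 and TNIP2 averaged 14.7 and 9.33 RPKM with DMSO and 16.9 and 9.82 with DZNep, and neither was called (adjusted p = 0.103 and 0.421).

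Of the 3 induced genes that act within the cell, IER3, an immediate early gene linked to survival, was called. IER3 was the most abundant member, at 119, 129 and 120.0 RPKM with DMSO and 148, 158 and 145 with DZNep. The groups were clearly apart, and IER3 rose by 0.29 (SE 0.0554, adjusted p = 0.00826). PTGS2, the inducible cyclooxygenase, averaged 37.0 RPKM with DMSO and 39.4 with DZNep, and SOD2, the mitochondrial superoxide dismutase, 15.9 and 16.3. Neither was called.

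**Figure D2:**
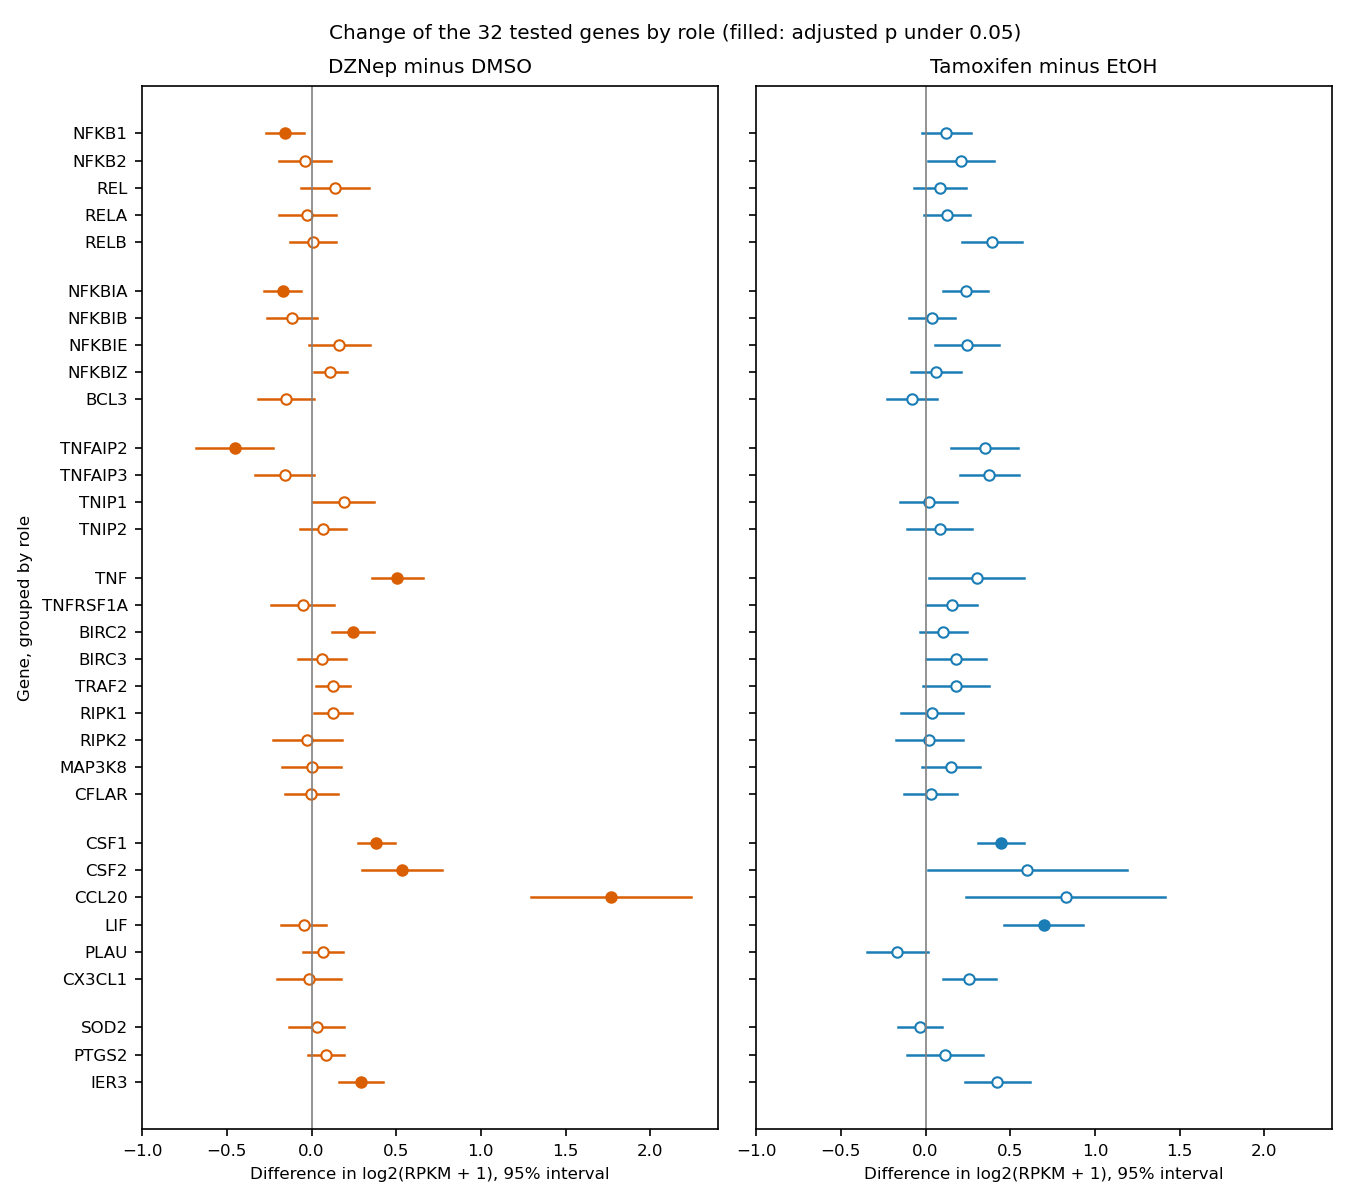
Change of each of the 32 members tested in log2(RPKM + 1), with 95% intervals, for DZNep minus DMSO and Tamoxifen minus EtOH, ordered by role; filled points were called. With DZNep, called changes run from -0.45 (TNFAIP2) to 1.77 (CCL20), and with Tamoxifen the called changes are those of CSF1 and LIF.

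With Tamoxifen, the cytokine genes CSF1 and LIF were called higher, and most other members had changes above 0 that did not pass the test. The largest change of all members, that of CCL20 (0.83, adjusted p = 0.121), was among those not called. LIF averaged 14.6 ± 1.47 RPKM with EtOH and 24.3 ± 2.03 with Tamoxifen, and CSF1 5.57 ± 0.0435 and 7.95 ± 0.117 (SD, n = 2). These 2 of 32 members (6.25%) were called higher, against 0.692% of the 11123 genes tested, and 0 were called lower by limma, against 1.38% (2.07% in either direction). At an unadjusted p under 0.05 there were 15 of 32 members higher and 0 lower, beside 1602 higher and 1229 lower of the 11123 genes. Every alternative setting that kept all libraries also called 0 members lower. The change was above 0 in 29 of 32 members (90.6%), beside 59.9% of all genes, and the median change was 0.15, beside 0.04 for all genes. Both Tamoxifen libraries lay above both EtOH libraries for 21 of 32 members (65.6%), against 36.6% of all genes, and below them for BCL3, PLAU and SOD2 (9.38%), against 23.2%. With DZNep the same counts of members with non-overlapping groups were 10 higher (31.2%), against 26.1% of all genes, and 3 lower (9.38%), against 19.4%.

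LIF stood at 15.6 and 13.6 RPKM in EtOH libraries 1 and 2 and at 22.9 and 25.7 in Tamoxifen libraries 1 and 2. Both Tamoxifen libraries were well above both EtOH libraries, and LIF rose by 0.70 (SE 0.0921, adjusted p = 0.0381). CSF1 stood at 5.53 and 5.60 RPKM with EtOH and at 7.86 and 8.03 with Tamoxifen. The replicates nearly coincided, and CSF1 rose by 0.45 (SE 0.0545, adjusted p = 0.0344). Neither call held when a Tamoxifen library was left out: the adjusted p of CSF1 was then 0.181 or 0.273 and that of LIF 0.108 or 0.23. Without the filter on low values, the adjusted p in limma's test was 0.117 for CSF1 and 0.125 for LIF. In that fit 1 of 16382 genes was called higher and 0 lower, and the cause was not tested.

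The remaining members that were called in another comparison did not pass with Tamoxifen. CCL20 stood at 6.61 and 9.78 RPKM with EtOH and at 12.3 and 18.4 with Tamoxifen. Its groups did not overlap but its replicates were wide apart, with a change of 0.83 (SE 0.233, adjusted p = 0.121). CSF2 stood at 3.32 and 1.68 RPKM with EtOH and at 3.75 and 4.59 with Tamoxifen, with a change of 0.60 (SE 0.233, adjusted p = 0.192). TNF stood at 5.33 and 4.30 RPKM with EtOH and at 5.71 and 6.59 with Tamoxifen, with a change of 0.30 (SE 0.111, adjusted p = 0.177). For both genes EtOH 1 was close to Tamoxifen 1, although the groups did not overlap. IER3 stood at 146 and 129 RPKM with EtOH and at 182 and 186 with Tamoxifen, with a change of 0.42 (SE 0.0762, adjusted p = 0.0617). BIRC2 stood at 16.1 and 16.9 RPKM with EtOH and at 18.0 and 17.7 with Tamoxifen, with a change of 0.10 (adjusted p = 0.284). In both genes the Tamoxifen libraries were the higher pair.

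None of the subunit, inhibitor and feedback genes was called with Tamoxifen, including the 5 whose response differed from that to DZNep in the test given further on. NFKBIA stood at 65.6 and 65.5 RPKM with EtOH and at 78.1 and 76.8 with Tamoxifen, with a change of 0.24 (SE 0.052, adjusted p = 0.0838). TNFAIP3 stood at 19.6 and 17.9 RPKM with EtOH and at 23.8 and 25.4 with Tamoxifen, with a change of 0.38 (SE 0.0689, adjusted p = 0.0635). Both encode negative regulators of the pathway that it induces itself. TNFAIP2 stood at 96.4 and 101 RPKM with EtOH and at 118 and 134 with Tamoxifen, with a change of 0.35 (SE 0.0778, adjusted p = 0.086). RELB, the subunit that pairs with p52, stood at 19.8 and 21.7 RPKM with EtOH and at 26.6 and 28.5 with Tamoxifen, with a change of 0.39 (SE 0.0701, adjusted p = 0.0614). NFKB1 stood at 34.7 and 36.7 RPKM with EtOH and at 38.2 and 39.5 with Tamoxifen, with a change of 0.12 (SE 0.0574, adjusted p = 0.252). In these 5 genes no EtOH library reached the lower Tamoxifen library. Leaving out EtOH 1 raised the count of called members from 2 to 5, with CSF2, IER3 and TNFAIP3 added, and leaving out EtOH 2 raised it to 4, with IER3 and RELB added.

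Among the other members, NFKB2 averaged 32.1 RPKM with EtOH and 37.2 with Tamoxifen (change 0.21, adjusted p = 0.178), and RELA 28.6 and 31.3. CX3CL1 averaged 14.0 and 16.9 RPKM (change 0.26, adjusted p = 0.0939), and NFKBIE, the gene of IkB-epsilon, 3.90 and 4.81 (change 0.24, adjusted p = 0.136). PLAU had the lowest change, at -0.17 (adjusted p = 0.218). The changes of REL, NFKBIB, NFKBIZ, BCL3, TNIP1, TNIP2, TNFRSF1A, TRAF2, BIRC3, RIPK1, RIPK2, MAP3K8, CFLAR, SOD2 and PTGS2 lay between -0.08 and 0.18. In the genetic experiment the 4 members under the filter reached at most 0.445 RPKM (IL23A), 0.12 (CCL2), 0.0873 (IL6) and 0.0793 (TRAF1).

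**Figure D3:**
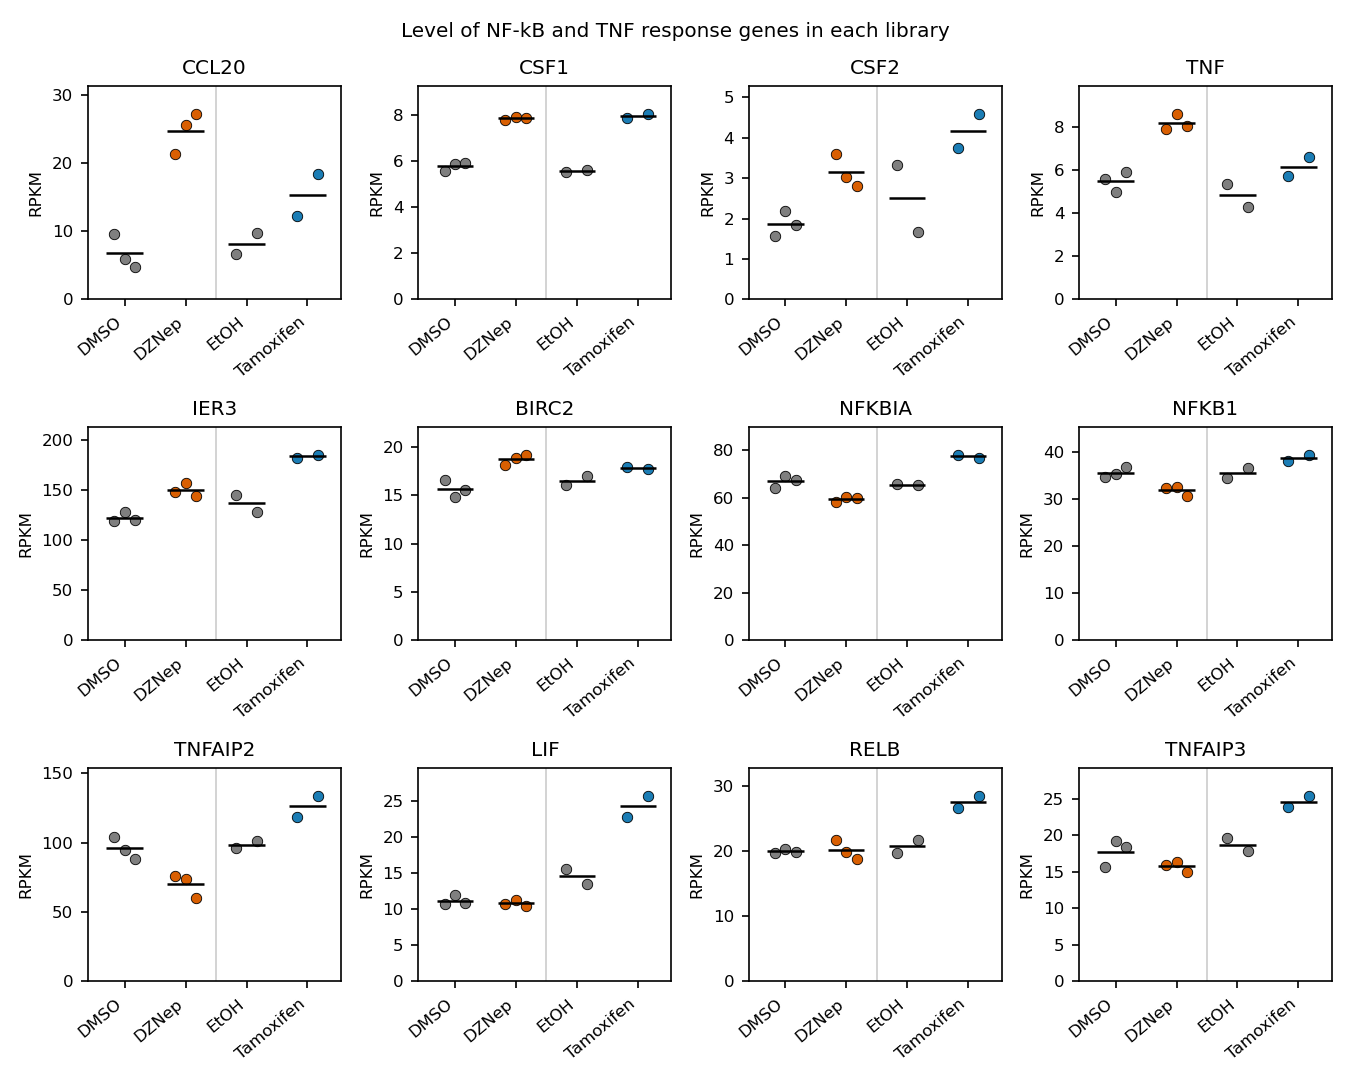
RPKM of members called in any comparison, with 1 point per library and a bar at each group mean, for DMSO, DZNep, EtOH and Tamoxifen. CCL20 stands between 21.4 and 27.2 RPKM with DZNep, above every DMSO library, and LIF at 22.9 and 25.7 RPKM with Tamoxifen.

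The responses of the module to DZNep and to Tamoxifen were compared directly, as the DZNep change minus the Tamoxifen change in a fit over all 10 libraries. The difference was called for LIF, NFKBIA, TNFAIP2, TNFAIP3, RELB and NFKB1, all with a lower signed change with DZNep than with Tamoxifen. That is 6 of 32 members (18.8%) called lower, against 9.2% of the 10994 genes tested, and 0 called higher by limma, against 10.7% (19.9% in either direction). At an unadjusted p under 0.05 there were 8 of 32 members lower and 2 higher. Of the 10994 genes tested, 1924 were lower and 1957 higher at that threshold. The chemical and genetic tables were deposited separately, so levels were not compared across them, only changes.

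For LIF the difference was -0.74 (SE 0.108, adjusted p = 0.00175), from changes of -0.05 with DZNep and 0.70 with Tamoxifen. For TNFAIP2 it was -0.80 (SE 0.147, adjusted p = 0.00563), from -0.45 and 0.35. For NFKBIA it was -0.41 (SE 0.0678, adjusted p = 0.00353), from -0.17 and 0.24. These 3 differences, in a cytokine, a TNF-induced gene and the gene of IkB-alpha, were called in every alternative setting. For TNFAIP3 the difference was -0.54 (SE 0.116, adjusted p = 0.0114), for RELB -0.38 (SE 0.0953, adjusted p = 0.0202) and for NFKB1 -0.28 (SE 0.073, adjusted p = 0.0246). Without Tamoxifen 2 the count fell to 3, with adjusted p of 0.0563 for TNFAIP3, 0.095 for RELB and 0.109 for NFKB1. RELB and NFKB1 also missed the threshold without DMSO 2 (adjusted p = 0.0503 and 0.0566), and NFKB1 with the replicate number fitted as a block (0.0808). Both missed it without EtOH 1 too, and NFKB1 without Tamoxifen 1, fits that leave 1 library in a group.

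Among the members, growth factor and cytokine genes other than LIF, and also IER3, were not shown to differ between the responses. The difference was -0.06 for CSF1 (95% interval -0.22 to 0.09, adjusted p = 0.536), and CSF1 was the member called in both experiments, with changes of 0.38 and 0.45. It was 0.21 for TNF (adjusted p = 0.282), -0.07 for CSF2 (adjusted p = 0.875) and -0.13 for IER3 (adjusted p = 0.342). For CCL20 the DZNep change exceeded the Tamoxifen change by 0.94 (95% interval 0.15 to 1.73), with an adjusted p of 0.0879 that became 0.0171 without DMSO 1, the highest DMSO library. For the 26 members not called, the intervals leave room for differences, and a missed threshold does not show that the responses were alike.

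**Figure D4:**
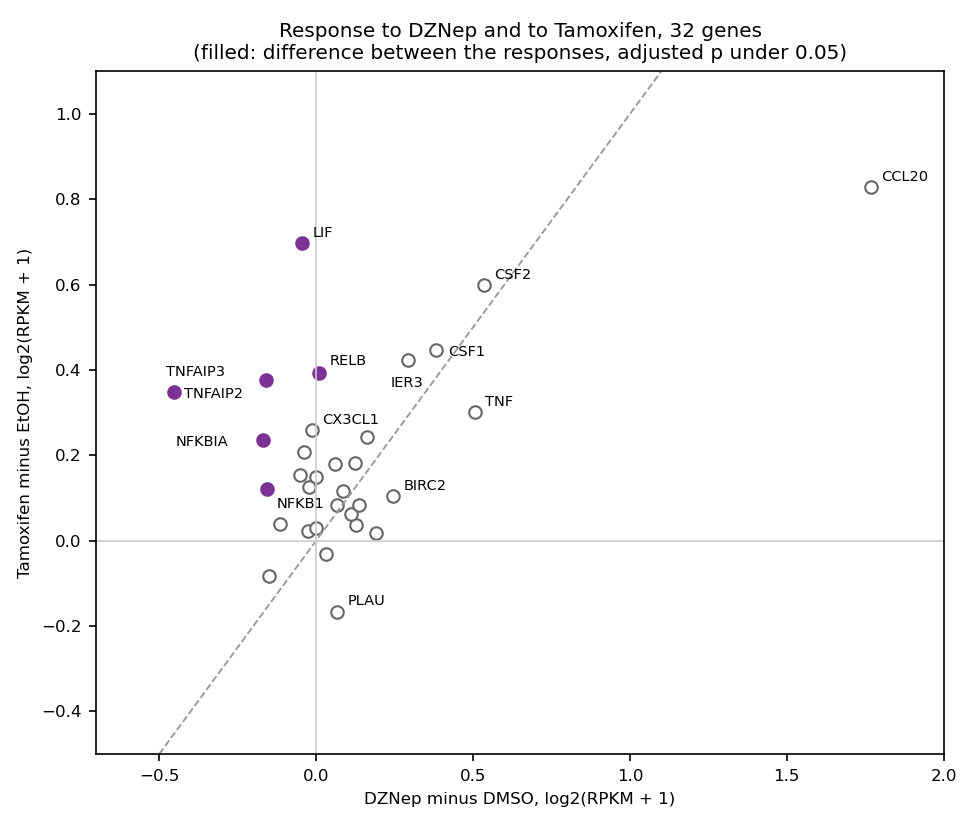
Change with Tamoxifen (vertical axis) against change with DZNep (horizontal axis) in log2(RPKM + 1) for the 32 members tested, with the dashed line at equal changes; filled points were called in the test of the difference. The 6 filled genes lie above the line, with TNFAIP2 at -0.45 and 0.35, while CSF1 lies close to it at 0.38 and 0.45.

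**Figure D5:**
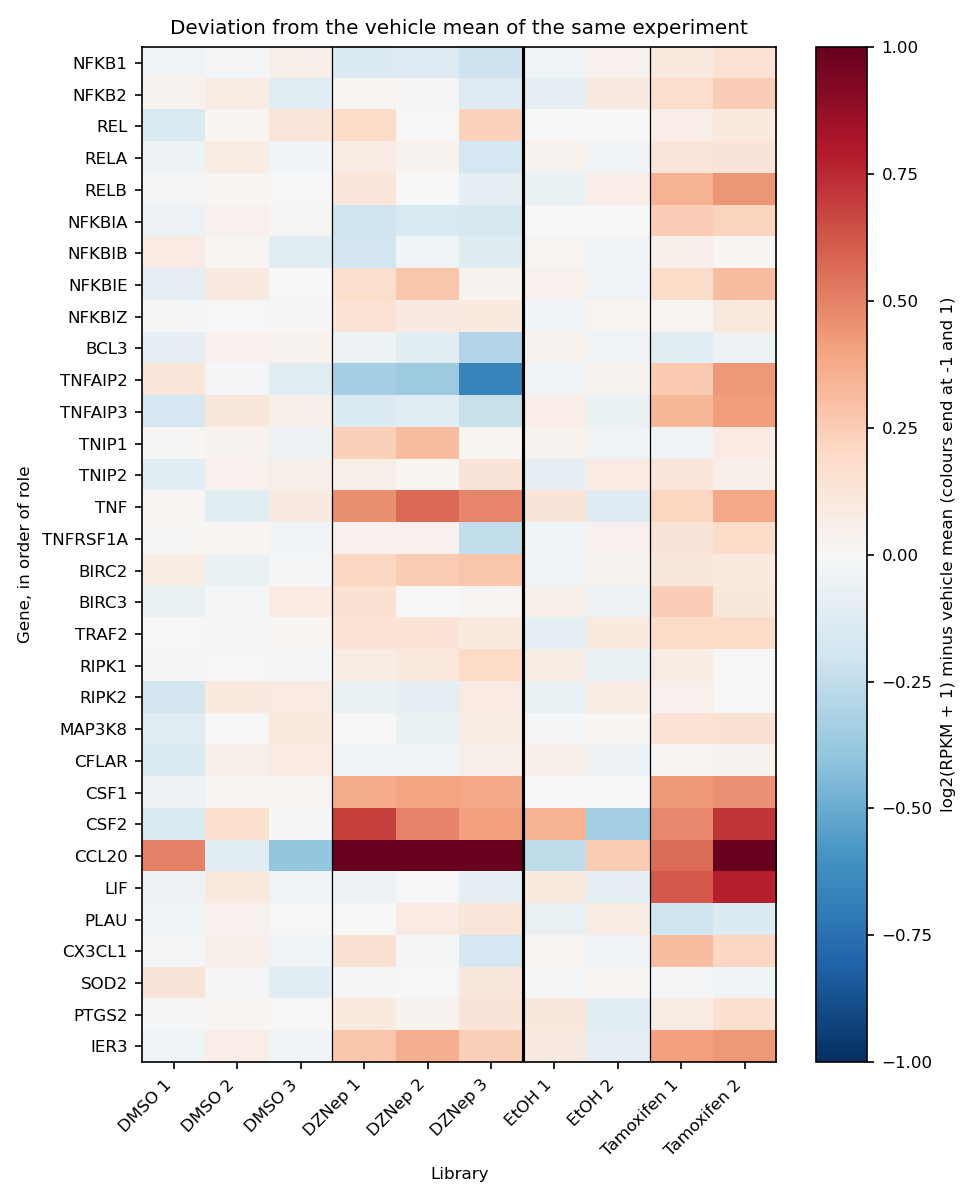
Deviation of each library from the mean of its control group in log2(RPKM + 1), for the 32 members tested in rows grouped by role and the 10 libraries in columns. Colours end at -1 and 1, which CCL20 passes in every DZNep library and in Tamoxifen 2, and TNFAIP2 is below its control mean in every DZNep library and above it in both Tamoxifen libraries.

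Markers of other cell types were measured beside these genes, because CSF1, TNF and CCL20 are also made by immune cells. Of the 10 macrophage and monocyte markers in the tables, CD14 and CD68 reached 1 RPKM in every group, EMR1 was listed at 0 in every library, and AIF1 reached 1 RPKM in a library given DZNep and in one given EtOH. CSF1R, CX3CR1, ITGAM, LYZ2 and PTPRC were at or near 0, with a highest value of 0.0672 RPKM (LYZ2). The summed level of the list was 44.4 to 49.1 RPKM with DMSO and 60.6 to 62.6 with DZNep, and 49.0 to 51.8 with EtOH and 63.7 to 68.1 with Tamoxifen. CD14, a receptor for bacterial lipopolysaccharide, carried most of it and was called in both experiments, from 31.6 to 43.0 RPKM with DZNep (change 0.44, adjusted p = 0.00157) and from 36.3 to 52.0 with Tamoxifen (change 0.50, adjusted p = 0.0305). None of the 9 T, NK and B cell markers and none of the 7 endothelial markers reached 1 RPKM in any group. The 10 fibroblast and smooth muscle markers summed to 3.48 to 4.67 RPKM with DMSO, 8.69 to 9.82 with DZNep, 3.77 to 4.24 with EtOH and 2.92 to 4.51 with Tamoxifen, with COL3A1 at 0. The 5 neutrophil and mast cell markers summed to 14.1 to 29.0, 22.3 to 24.8, 15.6 to 18.9 and 5.71 to 6.36 RPKM in the same order, mostly from S100A8 and S100A9, with CSF3R and CPA3 at 0 and KIT reaching 1 RPKM with DZNep. The epithelial list summed to 4200 to 4347 RPKM with DMSO, 5618 to 5698 with DZNep, 4414 to 4429 with EtOH and 3948 to 4033 with Tamoxifen. With DZNep, S100A8 and KIT of the neutrophil and mast cell list, DCN and ACTA2 of the fibroblast list and KRT14, KRT5 and KRT8 of the epithelial list were called higher. With Tamoxifen, S100A9 and KRT14 were called lower. The part of these markers in the changes of the members was not tested.

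Other genes of the pathway were read from a list of 55 signalling genes and a list of 55 further induced genes, neither of which holds a member. Of 43 induced genes tested with DZNep, 18 were called higher (41.9%, against 16.6% of all genes) and 2 lower (4.65%, against 11.1%), with a median change of 0.12, beside 0.01 for all genes. The chemokine gene CXCL10 rose from 2.11 to 18.2 RPKM (2.62, adjusted p = 4.06e-06), the peptide transporter TAP1 from 6.87 to 15.3 (1.05, adjusted p = 1.07e-05) and the chemokine CXCL5 from 110.3 to 231 (1.06, adjusted p = 4.87e-05). CXCL10 and TAP1 are also well-known targets of interferon. The growth factor gene HBEGF fell by 0.36 (adjusted p = 0.00944) and the cyclin gene CCND1 by 0.23 (adjusted p = 0.0131). Of 45 signalling genes tested with DZNep, 8 were called higher (17.8%) and 2 lower (4.44%), with a median change of 0.02, so the share called higher was near that of all genes. RBCK1, a subunit of the linear ubiquitin ligase, rose by 0.27 (adjusted p = 0.00879), the adaptor BCL10 by 0.22 (adjusted p = 0.0104) and the deubiquitinase CYLD, a negative regulator, by 0.23 (adjusted p = 0.0159). The protease gene MALT1 fell by 0.24 (adjusted p = 0.0184) and the kinase gene IRAK1 by 0.17 (adjusted p = 0.0341).

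With Tamoxifen, 5 of 41 induced genes tested were called higher (12.2%), with a median change of 0.21, and 1 of 45 signalling genes (2.22%), with a median of 0.03. Over all genes 0.692% were called higher, and the median was 0.04. The adhesion molecule gene ICAM1 rose from 10.2 to 14.9 RPKM (0.51, adjusted p = 0.0344), LCN2, which encodes the siderophore-binding lipocalin, from 142 to 225 (0.65, adjusted p = 0.0344) and GCH1, an enzyme of tetrahydrobiopterin synthesis, from 6.18 to 8.49 (0.40, adjusted p = 0.0384). The signalling gene was the IkB kinase relative IKBKE, from 16.7 to 21.4 RPKM (0.34, adjusted p = 0.0486). No gene of either list was called lower by limma with Tamoxifen, against 1.38% of all genes. At an unadjusted p under 0.05, 2 of the 45 signalling genes and 0 of the 41 induced genes were lower, beside 1229 of all 11123 genes.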

How the data were processed

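RNA-seq values were analysed for 36 NF-kB and TNF response genes in 10 libraries of mouse prostate cancer organoids (3 DMSO, 3 DZNep, 2 EtOH, 2 Tamoxifen). Per the labels' protocols, stranded mRNA libraries were made from 500 ng of total RNA. Per the submitters' processing notes, bcl2fastq 2.18, STAR, Cufflinks and the mm9 build were used, with no settings stated. The authors deposited log2 RPKM values in 1 table per experiment. Their floor is 0, so a pseudocount of 1 was inferred from the values, and subtracting it after raising 2 to each value gave RPKM. A shared normalization of both tables is not stated, and no counts were used, so depth and counting error are unknown.

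In the genetic table, 27 rows whose symbols had turned into dates were left out. Genes averaging 1 RPKM or more across a table were tested with limma 3.58.1 (R 4.3.3; variance prior following the mean, Benjamini-Hochberg adjustment over all genes tested, threshold 0.05), each experiment alone. The difference between the responses was tested in a fit of the 4 group means over all 10 libraries. The procedure was run on simulated data with independent noise in each library, which cannot test whether the real replicates are independent. No batch is named in the labels, and correlations of log values between replicates were 0.976 to 0.985 across genes.

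The members and lists were chosen with earlier results of these data known. Every member could be named, and those called in any comparison have all library values given. From each wider list, up to 3 called genes of smallest p per direction and experiment were named. Promoters were taken from RefSeq, GRCm38.p6, for the 6 members with the largest called changes (CCL20, LIF, CSF2, TNF, TNFAIP2 and CSF1), and NFKBIA and TNFAIP3 were added after their values were seen; no coordinates were converted between builds. Alternatives were another pseudocount (0.1), leaving out each library, a joint fit, a replicate block, robust moderation, a prior without the trend, scaling by trimmed means, quantile normalization, and a low-value filter at 5 RPKM or none. Figures were drawn with Python 3.11.15 and matplotlib 3.10.9.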

Additional observations from a re-analysis of the deposited data

Results flagged for a closer look

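For 6 members the response to DZNep differed from the response to Tamoxifen in the test of the difference itself (limma over 10 libraries, DZNep change minus Tamoxifen change in log2(RPKM + 1)). The difference was -0.74 for the cytokine gene LIF, -0.41 for the inhibitor gene NFKBIA and -0.80 for the TNF-induced gene TNFAIP2. It was -0.54 for TNFAIP3, which encodes A20, -0.38 for the subunit gene RELB and -0.28 for the subunit gene NFKB1. For NFKBIA, TNFAIP2 and NFKB1, all 3 DZNep libraries were below all 3 DMSO libraries and both Tamoxifen libraries were above both EtOH libraries. The experiments also differ in solvent, in agent and in number of libraries, and the part of each in these differences was not tested.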

How the results depend on the processing

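With DZNep, the count of members called higher (6) stayed between 5 and 8 over all alternatives, and the median change of the members tested stayed between 0.02 and 0.06. The count of members called lower (3) was 2 with a prior without the trend, 1 with the replicate block and 1 to 4 when a library was left out. Over all genes the count called lower with DZNep (1238) was 1227, 594 and 541 to 1267 in the same order. The count of all genes called higher (1850) ran from 981 to 2092 over the alternatives. With Tamoxifen, the count of members called higher (2) was 0 with no filter and 6 with robust variance moderation. It was 6 in 1 joint fit of all 10 libraries and 8 with the replicate block, and it also moved when a library was left out. Over all genes the count called higher with Tamoxifen (77) was 1, 261, 479 and 429 in the order of these 4 settings, so both counts moved together. In every setting that kept all libraries, 0 members were called lower with Tamoxifen. The count of differences between the responses (6) was 3 to 7 when a library was left out, with 3 without Tamoxifen 2. Leaving out a Tamoxifen or EtOH library leaves 1 in its group, which is then assumed to vary like the others. Over all genes the count of differences called lower (1011) was 602 to 1048 when a DMSO or DZNep library was left out. For the 12 members called in any comparison, 497 of 549 recomputed calls stayed on their side of the threshold, 31 lost it, 21 gained it and 0 reversed. These counts include results not called in the main fit, and a change of sign between uncalled fits counts as staying. Such changes of sign occurred for LIF (-0.07 to 0.003) and RELB (-0.05 to 0.06) with DZNep and for the CSF2 difference (-0.41 to 0.28). Beyond these 12 members, IL6 and NFKBIZ (no filter) and TNIP1 (without DZNep 3) were also called higher with DZNep. CX3CL1 was called higher with Tamoxifen (replicate block). The difference was called for IL6 (no filter) and CX3CL1 (without DZNep 1). The cause of these shifts was not tested. Dropping the filter brought in more genes and leaving out a library used fewer samples, and the part of either in the shifts was not tested. In the chemical experiment, same-number deviations from the group mean correlated at 0.059, 0.059 and -0.068. Not every library there correlated best with its own number. In the genetic experiment, deviations of the same number correlated at 0.04 and those of different numbers at -0.04. With 2 libraries per group the deviations are equal and opposite, so these values cannot decide whether replicate numbers pair the libraries there. Depth is unknown without counts, so the precision of values under 1 RPKM, those of IL6, IL23A, CCL2 and TRAF1, cannot be given.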

Other observations

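Among the 55 further induced genes and the 55 signalling genes that are not members, the responses to DZNep and Tamoxifen also differed for some genes, in both directions. Of 41 induced genes tested, 7 had a higher signed change with DZNep than with Tamoxifen (17.1%), against 10.7% of all genes, namely the chemokine genes CXCL5, CXCL10 and CXCL1, the antigen processing genes TAP1 and PSMB9, the death receptor gene FAS and the matrix gene TNC. CXCL5 had the smallest p among them, with changes of 1.06 with DZNep and 0.01 with Tamoxifen (difference 1.05, SE 0.099, adjusted p = 0.000177), while CXCL10 rose in both experiments (2.62 and 0.88, difference 1.74, adjusted p = 0.000227). Another 7 induced genes (17.1%) had a lower signed change with DZNep than with Tamoxifen, against 9.2% of all genes, namely GCH1, HBEGF, ICAM1, BCL2L1, ZC3H12A, PTGES and CCND1. HBEGF, a ligand of the EGF receptor, had changes of -0.36 with DZNep and 0.40 with Tamoxifen (difference -0.75, adjusted p = 0.00398). ZC3H12A, an RNase that restrains inflammatory transcripts, had changes of -0.09 and 0.53 (difference -0.62, adjusted p = 0.03). Of 45 signalling genes, 1 had a higher signed change with DZNep (2.22%, against 10.7% of all genes), the deubiquitinase gene CYLD. The signed change was lower for 5 (11.1%, against 9.2%), namely IKBKE, IRAK1, CARD10, LTBR and TNFRSF12A. That share lies near the one of all genes, so it is not a result about the signalling list. Some of the genes named here, such as CCND1 and IRAK1, were called lower with DZNep (-0.23 and -0.17). They had changes of 0.02 and 0.09 with Tamoxifen.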
